A study of Mus musculus with 36 samples.

Results

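The genes described here are those of the RANKL, RANK and OPG system and of the osteoclast, the cell that dissolves bone and calcified cartilage. The 9 genes were chosen by name: Tnfsf11 (RANKL), Tnfrsf11a (RANK), Tnfrsf11b (OPG, osteoprotegerin), Oscar, Dcstamp, Ocstamp, Acp5, Ctsk and Atp6v0d2. Each was represented by the RefSeq transcript row with the highest mean count over the 12 RNA libraries. They had 11 of the 30048 transcript rows, because Acp5 had 3 near-identical ones. The covered CpG cytosines in Tnfrsf11b and 5 kb to either side of it were added from the DNA libraries. In the oxidative bisulfite libraries these numbered 7 of 1445146 cytosines testable at 4 weeks and 8 of 1273156 at 12 weeks.

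The study operated on the right knee of male C57BL/6J mice, 12 weeks old at surgery, to destabilise the medial meniscus (DMM), which leads to osteoarthritis of that joint. The left knee of the mice was not operated on and served as the control. Articular cartilage of the tibia and femur was taken 4 or 12 weeks after surgery, and 3 knees were pooled for each library. In every comparison between the weeks, time after surgery, age of the mice and any preparation batch cannot be told apart. Each of the 4 groups, control and DMM at 4 weeks and control and DMM at 12 weeks, had 3 RNA libraries and 3 DNA pools. Each DNA pool was sequenced after bisulfite (BS) and after oxidative bisulfite (oxBS) treatment, and separate mice gave the RNA. No sham-operated group and no animal-level value was analysed here, and a library is a pool. The p-values for RNA and for library means therefore measure the spread between pools. The likelihood-ratio tests of single cytosines summed the reads of a limb and leave that spread out, unless corrected for overdispersion.

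RANKL is a ligand of the tumour necrosis factor family, made in the skeleton mainly by osteocytes, osteoblasts and hypertrophic chondrocytes. It binds RANK on myeloid precursors, which with M-CSF signalling turns on NF-kB and NFATc1 and makes the precursors fuse into osteoclasts. OPG is a secreted decoy receptor that binds RANKL and keeps it from RANK, so the amounts of the ligand and of the decoy are usually read together. Articular chondrocytes make OPG, whereas the osteoclast itself is a cell of the bone and calcified cartilage under the joint surface.

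The RNA libraries held from 27706547 to 62737656 counts each. All 12 listed chondrocyte markers were detected in every library, with a summed level of 7424 to 23954 CPM, the read count scaled to a common library total. Markers of other cell types were also present, none of the listed genes was at 0 in any library, and several summed levels differed between the limbs at 4 weeks. The osteoblast and osteocyte markers summed to 10897 to 12336 CPM in the control limb and 17285 to 18113 CPM in the DMM limb, and the skeletal muscle markers to 5764 to 20621 and 509 to 3460 CPM. At 12 weeks these osteoblast and osteocyte sums were 10250 to 16060 CPM in the control limb and 16461 to 19858 CPM in the DMM limb. In such bulk samples fewer cells of a type and less RNA per cell cannot be told apart, and the part of these markers in the results that follow was not tested.

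Tnfsf11, Tnfrsf11b and the osteoclast genes were all expressed, at very unequal levels. Per kilobase of transcript, Tnfrsf11b stood at a mean of 408 ± 165 CPM (SD, n = 3) in the control limb at 4 weeks. Acp5 stood at 352 ± 247 and Ctsk at 348 ± 162 on the same per-kilobase scale, so these 3 did not differ beyond their spread. Atp6v0d2 came next at 22.1 ± 13.9, and Dcstamp at 5.58 ± 3.91, Oscar at 3.98 ± 3.05, Ocstamp at 3.16 ± 2.38, Tnfsf11 at 2.68 ± 0.39 and Tnfrsf11a at 2.24 ± 0.92 followed, with overlapping spreads. In the 3 other groups the same 3 genes stood highest, with Atp6v0d2 next.

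**Figure D1:**
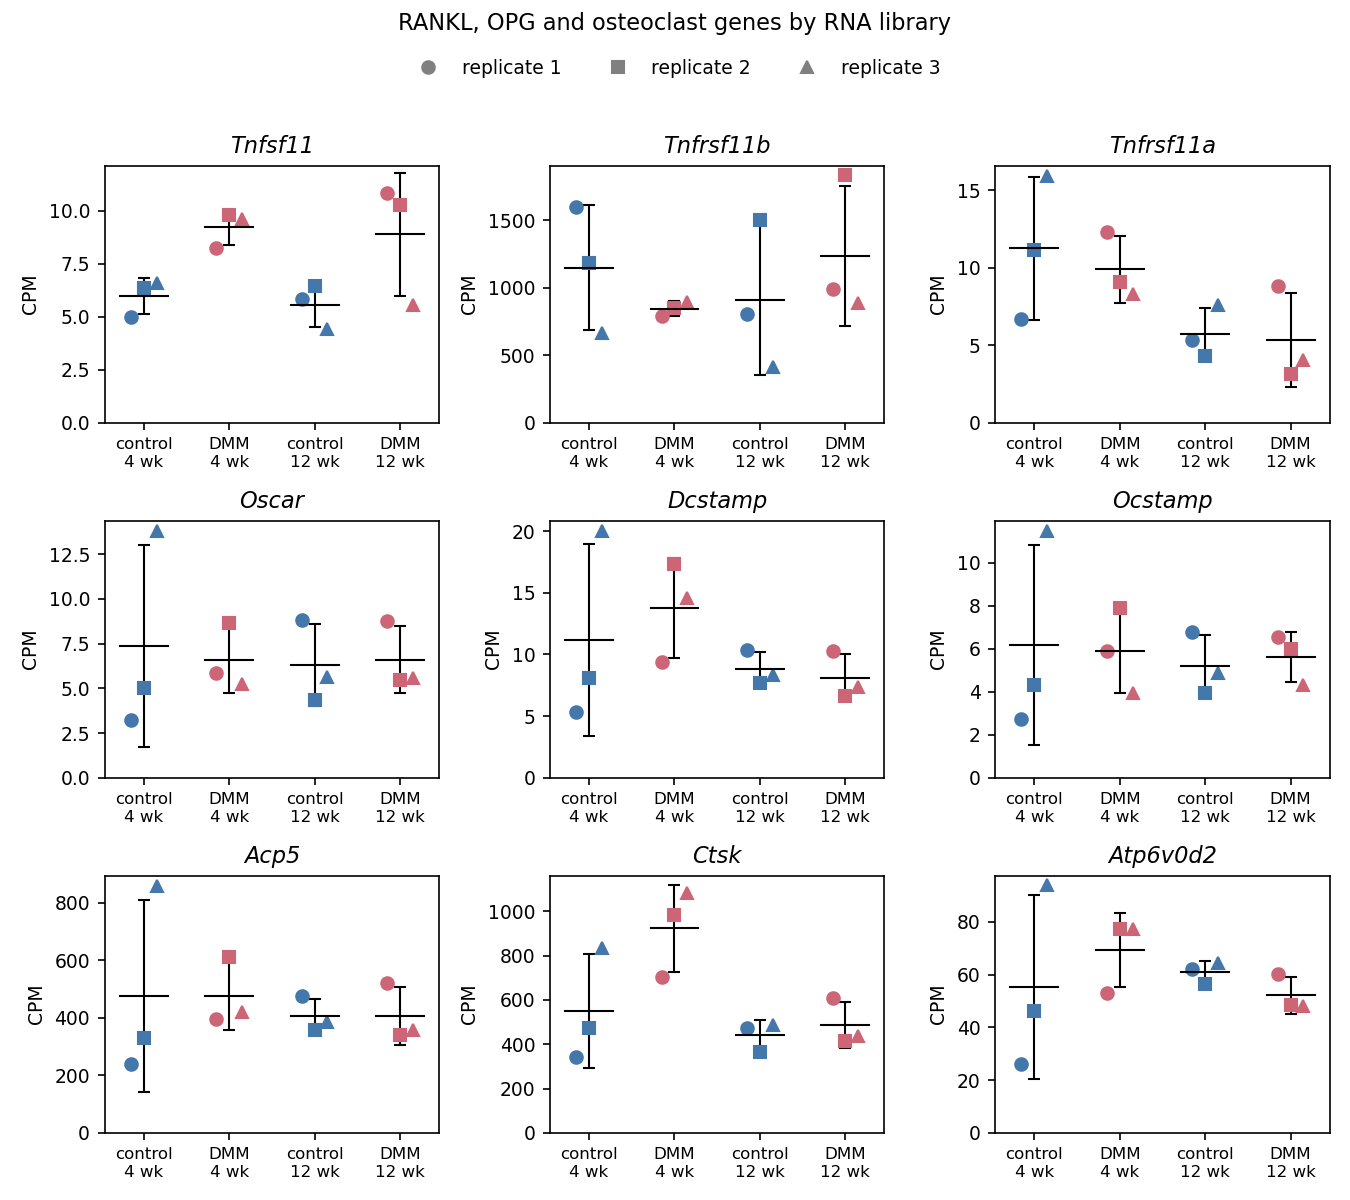
Level of each of the 9 genes, in CPM on a linear axis from 0, in the 12 RNA libraries by limb and week. Points are libraries, horizontal lines are group means and error bars are 1 SD (n = 3). The Tnfsf11 points of the DMM limb at 4 weeks lie above all control points of that week, whereas the groups of the other 8 genes overlap at each week.

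None of the 9 genes passed the test between the limbs. At 4 weeks 0 of 9 were called at an adjusted p under 0.05 in edgeR's quasi-likelihood test, where 0.0757% of the 21140 transcripts tested were called (16 transcripts). At 12 weeks 0 of 9 were called, where 0.00476% of 21010 transcripts were called (1 transcript). All 9 genes passed the filter on low counts in each comparison. At an unadjusted p under 0.05, 1 of 9 was past the threshold at each week (Tnfsf11 both times), against 13.7% and 16.3% of all transcripts. DESeq2 called 0 of 9 at each week as well, and 3.47% and 4.26% of all transcripts. At 4 weeks 1 of 9 had DMM libraries all above the controls and 0 of 9 all below, against 10.8% and 10.3% of all genes tested, and at 12 weeks 0 of 9 had either, against 9.88% and 8.42%.

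RANKL was the member with the clearest separation of the limbs. Tnfsf11 (chr14:78277446-78308043, mm10) stood at 4.99, 6.38 and 6.59 CPM in the control limb at 4 weeks and at 8.27, 9.81 and 9.60 CPM in the DMM limb. All 3 DMM libraries were above all 3 control libraries, the share of all genes that did so being given above. Its log2 difference between the limbs was 0.62 (SE 0.22, edgeR adjusted p = 0.322). The 12-week control libraries stood at 5.85, 6.45 and 4.43 CPM and the DMM libraries at 10.8, 10.3 and 5.57 CPM. There DMM replicate 3 fell among the controls, and the log2 difference was 0.68 (SE 0.28, edgeR adjusted p = 0.296). Between the weeks the log2 level of Tnfsf11 differed by -0.10 (SE 0.25) in the control limb and -0.06 (SE 0.25) in the DMM limb, and the difference between the weeks in the effect of limb was 0.05 (SE 0.36, adjusted p = 0.960 in edgeR). At both weeks the osteoblast and osteocyte marker sums of the DMM libraries, given above, lay above those of the controls. Gene by gene, 8 of these 10 markers were above 0 and 2 below at each week. Their median log2 differences were 0.29 and 0.48, and 0 were called in edgeR. The synovial and fibroblast markers summed to 2836 to 4545 CPM in the control limb and 5129 to 7833 CPM in the DMM limb at 4 weeks, and to 3861 to 7585 and 5472 to 7852 CPM at 12 weeks, where they overlapped. The part of these marker lists in the Tnfsf11 values was not tested.

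The decoy OPG varied widely between the control pools. Tnfrsf11b (chr15:54250619-54278484) stood at 1596, 1186 and 667 CPM in the control limb at 4 weeks and at 788, 850 and 897 CPM in the DMM limb. The narrow DMM range lay inside the wide control range, and the log2 difference was -0.44 (SE 0.33, edgeR adjusted p = 0.521). At 12 weeks the control libraries stood at 806, 1506 and 411 CPM and the DMM libraries at 991, 1832 and 885 CPM. The limbs overlapped again, with a log2 difference of 0.45 (SE 0.47, edgeR adjusted p = 0.641). The effect of limb therefore had opposite signs at the 2 weeks, but the test of that change gave 0.89 (SE 0.63, adjusted p = 0.510 in edgeR) and did not pass. Single libraries moved both differences. At 4 weeks the estimate was -0.14 with control replicate 1 left out and -0.73 with control replicate 3 left out, and at 12 weeks it was 0.066 with DMM replicate 2 left out and 0.99 with control replicate 2 left out. Control replicates 1 and 2 of week 4, with the highest Tnfrsf11b, also had the highest chondrocyte marker sums of that week (19756 and 15738 CPM against 8281 to 12230 CPM in the other 4 libraries). Between the limbs, 10 of the 12 chondrocyte markers were below 0 and 2 above at 4 weeks, with a median log2 difference of -0.83. At 12 weeks all 12 were above 0, with a median of 0.52. For the change between the weeks all 12 were above 0, with a median of 1.26. In each of these tests 0 of the 12 were called in edgeR. Their part in the Tnfrsf11b values was not tested.

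Expressed within each library as OPG counts for each RANKL count, the 4-week control libraries held 319, 186 and 101 and the DMM libraries 95.1, 86.6 and 93.2. Every DMM library had fewer OPG counts per RANKL count than every control library, although control replicate 3 came close to them. The ratio holds the Tnfsf11 and Tnfrsf11b levels given above and is not a second observation of them. The share of other gene pairs that separate the limbs in this way was not computed. On the log2 scale, the ratio of RANKL to OPG was -7.50 ± 0.83 (SD, n = 3) in the control limb and -6.52 ± 0.07 in the DMM limb. The difference of 0.99 had a two-sided exact permutation p of 0.1, the smallest that 3 against 3 libraries can give. It was 0.58 without control replicate 1 and 1.41 without control replicate 3. At 12 weeks the counts of OPG for each RANKL count were 137, 233 and 92.5 in the control limb and 91.3, 178 and 159 in the DMM limb. These ranges overlapped, with log2 ratios of -7.17 ± 0.67 and -7.10 ± 0.52 and a difference of 0.07 (exact permutation p = 0.9). The change of the difference from 4 to 12 weeks was -0.92, and permuting the limbs within weeks gave an exact p of 0.255 over 400 arrangements. Leaving out control replicate 2 or DMM replicate 1 turned the 12-week difference to -0.28 and -0.23.

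**Figure D2:**
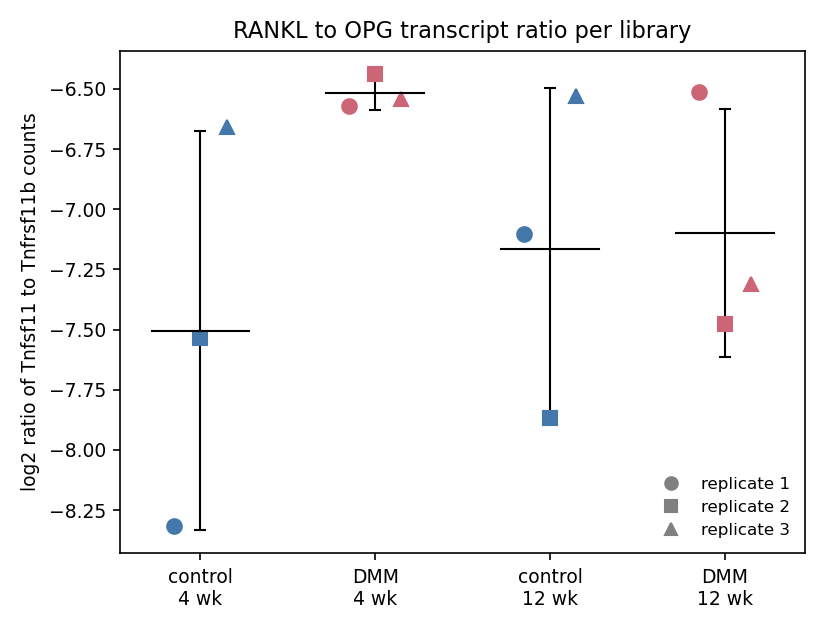
Log2 ratio of Tnfsf11 to Tnfrsf11b counts in each RNA library, by limb and week. Points are libraries, horizontal lines are group means and error bars are 1 SD (n = 3), with higher values for more RANKL per OPG count. The 3 DMM libraries at 4 weeks sit together above the 3 control libraries, and the limbs overlap at 12 weeks.

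The receptor RANK and the co-receptor Oscar, which binds collagen on osteoclast precursors, did not separate the limbs. Tnfrsf11a (chr1:105780673-105849444) stood at 6.70, 11.2 and 15.9 CPM in the control limb and 12.3, 9.06 and 8.29 CPM in the DMM limb at 4 weeks. The 12-week libraries stood at 5.31, 4.33 and 7.61 CPM and at 8.79, 3.18 and 4.07 CPM. The log2 difference between limbs was -0.19 (SE 0.34, edgeR adjusted p = 0.795) at 4 weeks and -0.08 (SE 0.41, edgeR adjusted p = 0.937) at 12 weeks, with every DMM range overlapping its control range. Across the weeks the estimate for Tnfrsf11a was lower at 12 weeks in both limbs, by -0.97 (SE 0.40, edgeR adjusted p = 0.152) in the control limb and -0.88 (SE 0.40, edgeR adjusted p = 0.129) in the DMM limb, and neither passed the test. Oscar (chr7:3609813-3616157) stood at 3.23, 5.03 and 13.8 CPM in control libraries and 5.85, 8.65 and 5.21 CPM in DMM libraries at 4 weeks. Its 12-week levels were 8.82, 4.36 and 5.65 CPM and 8.75, 5.47 and 5.60 CPM, nearly the same set of values in both limbs. The log2 differences of Oscar were -0.18 (SE 0.52) and 0.09 (SE 0.31).

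DC-STAMP and OC-STAMP are membrane proteins needed for precursors to fuse into multinucleate osteoclasts. Dcstamp (chr15:39745930-39760938) stood at 5.32, 8.12 and 20.03 CPM in the control limb and 9.35, 17.4 and 14.6 CPM in the DMM limb at 4 weeks. At 12 weeks it stood at 10.4, 7.67 and 8.37 CPM and at 10.3, 6.66 and 7.37 CPM. Its control replicate 3 at 4 weeks was the highest of all 12 libraries and its control replicate 1 the lowest. Ocstamp (chr2:165395450-165400394) had the same order in those controls, at 2.72, 4.33 and 11.5 CPM, and stood at 5.88, 7.88 and 3.96 CPM in the DMM limb. Its 12-week levels ran from 3.96 to 6.75 CPM. The log2 difference between limbs was 0.28 (SE 0.48) and -0.11 (SE 0.22) for Dcstamp and -0.08 (SE 0.53) and 0.12 (SE 0.27) for Ocstamp at 4 and 12 weeks, with edgeR adjusted p-values from 0.783 to 0.954.

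The genes that carry out resorption include those of the acid phosphatase TRAP and of the collagen-cleaving protease cathepsin K, and the limbs overlapped in all 3 measured here. Acp5 (chr9:22126727-22135746), which encodes TRAP, stood at 240, 330 and 860 CPM in the control limb and 397, 613 and 419 CPM in the DMM limb at 4 weeks. It stood at 475, 359 and 385 CPM and at 523, 340 and 357 CPM at 12 weeks. The control and DMM means were nearly equal, with log2 differences of -0.02 (SE 0.48) and 0.01 (SE 0.22). Ctsk (chr3:95499210-95509387) stood at 341, 472 and 837 CPM in the control limb and 702, 985 and 1083 CPM in the DMM limb at 4 weeks. Only DMM replicate 1 lay below the highest control, and the log2 difference of 0.73 (SE 0.37, edgeR adjusted p = 0.395) did not pass the test. The 12-week Ctsk libraries stood at 474, 364 and 485 CPM and at 607, 414 and 437 CPM, a log2 difference of 0.15 (SE 0.22, edgeR adjusted p = 0.737). Atp6v0d2 (chr4:19876838-19922566), a subunit of the proton pump that acidifies the resorption pit, stood at 26.0, 46.3 and 93.9 CPM in control and 53.1, 77.3 and 77.4 CPM in DMM libraries at 4 weeks. At 12 weeks it stood at 62.1, 56.4 and 64.3 CPM and at 60.1, 48.4 and 47.9 CPM, with log2 differences of 0.31 (SE 0.43) and -0.22 (SE 0.14).

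**Figure D3:**
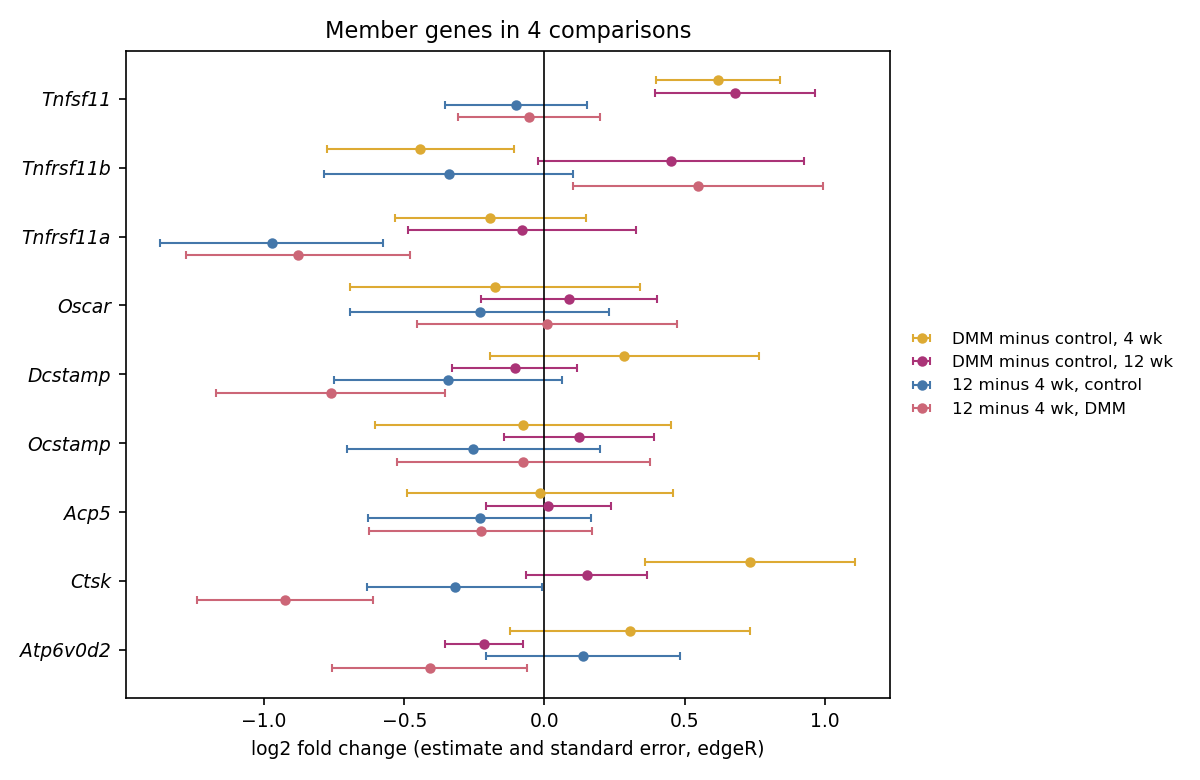
Log2 fold change of each of the 9 genes between the limbs at 4 and 12 weeks and between the weeks in each limb, with bars of 1 SE from edgeR. The highest estimates between limbs are those of Ctsk and Tnfsf11 at 4 weeks (0.73 and 0.62) and of Tnfsf11 at 12 weeks (0.68), the lowest between weeks are those of Tnfrsf11a (-0.97 and -0.88) and Ctsk (-0.93 in the DMM limb), and none of the 9 passed the test in edgeR.

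In the control limb at 4 weeks, 1 pool decided much of the spread of the osteoclast genes. Control replicate 3 was the highest and control replicate 1 the lowest of the 3 controls for all 6 of Tnfrsf11a, Oscar, Dcstamp, Ocstamp, Acp5 and Atp6v0d2, and for Ctsk. The summed level of the 7 osteoclast genes other than Tnfsf11 and Tnfrsf11b was 626, 877 and 1852 CPM in control replicates 1, 2 and 3, whereas the 3 DMM libraries stood at 1185, 1718 and 1611 CPM. Acp5 and Ctsk made up most of this sum, at 860 and 837 CPM in control replicate 3 and 419 and 1083 CPM in DMM replicate 3. At 12 weeks the sum ran from 799 to 1042 CPM in the control limb and from 823 to 1224 CPM in the DMM limb. The macrophage and monocyte markers followed the same order in the 4-week controls, at 2199, 3434 and 4787 CPM, and so did the neutrophil and bone marrow markers, at 9262, 15494 and 26810 CPM. Without control replicate 3 the 4-week log2 difference was 0.73 for Acp5, 0.74 for Ocstamp, 0.66 for Oscar, 1.02 for Dcstamp and 0.93 for Atp6v0d2, and none of these passed the test in edgeR.

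Between the weeks, which also differ in mouse age and in any preparation batch, Ctsk came nearest to a call. In the DMM limb its 12-week libraries (414 to 607 CPM) all lay below its 4-week libraries (702 to 1083 CPM), a pattern that 19% of all genes tested showed. The log2 difference was -0.93 (SE 0.31, edgeR adjusted p = 0.0510). In that comparison 0 of 9 members were called, against 23.6% of all 21618 transcripts. In the control limb 0 of 9 were called against 5.69% of transcripts (2.45% higher and 3.24% lower at 12 weeks), and Ctsk differed by -0.32 (SE 0.31). The change of the effect of limb between weeks was called for 0 of 9 members and for 0% of all transcripts, with 2656 transcripts at an unadjusted p under 0.05 and 16 (0.0651%) called by DESeq2. For Ctsk this change was -0.61 (SE 0.44, edgeR adjusted p = 0.519). Ctsk was called in the DMM limb in 7 of 20 alternative settings, DESeq2 among them, which gave -0.95 with an adjusted p of 0.0143 and called 29.1% of all transcripts. Leaving out control replicate 3 of week 4 also called Dcstamp (-0.80, edgeR adjusted p = 0.0388) and leaving out DMM replicate 1 of week 12 called Tnfrsf11a (-1.44, edgeR adjusted p = 0.0341).

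The wider pathway was read from lists chosen by function. Of 21 genes of RANK signalling and osteoclast differentiation, 0 were called between the limbs at 4 weeks, with a median log2 difference of -0.33 against -0.02 over all genes, and 0 of the 20 tested were called at 12 weeks (median -0.34 against 0.02). At 12 weeks the macrophage and monocyte markers summed to 4528 to 6019 CPM in the control limb and 3684 to 4369 CPM in the DMM limb, without overlap. At 4 weeks these marker sums overlapped, at 2199 to 4787 CPM in the control limb and 3188 to 6818 CPM in the DMM limb. There 8 of the 9 markers were above 0 and 1 below, with a median log2 difference of 0.67, opposite in sign to the list. Their part in either median was not tested. Itgb3, the beta subunit of the vitronectin receptor by which osteoclasts attach, stood at 67.7 to 78.5 CPM in control and 38.9 to 51.6 CPM in DMM libraries at 4 weeks. Its log2 difference was -0.71 (SE 0.19, edgeR adjusted p = 0.252) and at 12 weeks -1.0 (SE 0.38, edgeR adjusted p = 0.282). At 12 weeks the limbs overlapped, at 58.5 to 166 CPM in control and 52.5 to 75.8 CPM in DMM libraries. Nfatc1, the transcription factor that RANKL induces in precursors, differed by -0.52 (SE 0.33) at 4 weeks and 0.14 (SE 0.13) at 12 weeks. Csf1r, the M-CSF receptor of osteoclast precursors, differed by 0.06 (SE 0.29) and -0.44 (SE 0.24). Siglec15, a receptor of osteoclast differentiation, was near the floor of detection at 0.06 to 0.60 CPM and was not tested at 12 weeks. Traf6, the adaptor of RANK, differed by -0.09 (SE 0.20) and -0.67 (SE 0.22, edgeR adjusted p = 0.255).

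From 4 to 12 weeks in the DMM limb, 7 of the 21 rose and 2 fell in edgeR, where 13.6% of all transcripts rose and 10.1% fell. Those that rose were Nfatc1, by 1.01 on the log2 scale (SE 0.27, adjusted p = 0.0202), the myeloid lineage factor Spi1 by 1.06 (adjusted p = 0.0214), and Nfkb2 (0.74), Relb (0.52) and Map3k14 (1.0) of the non-canonical NF-kB route, with Src (0.76) and Irf8 (0.99), the last a repressor of osteoclast formation. Traf6 fell by 0.82 (adjusted p = 0.0186) and Jdp2, an AP-1 family factor, fell by 0.94 (adjusted p = 0.0104). In the DMM limb the neutrophil and bone marrow markers summed to 13620 to 20374 CPM at 4 weeks and 21146 to 34307 CPM at 12 weeks, and the chondrocyte markers to 8281 to 12230 and 15250 to 23954 CPM. Both sums were higher at 12 weeks without overlap. The macrophage and monocyte markers went the other way, with 8 of the 9 tested below 0, 5 called lower in edgeR and a median log2 difference of -1.26. The part of these marker lists in these changes was not tested. In the control limb 0 rose and 2 fell in edgeR, where 2.45% of all transcripts rose and 3.24% fell, Jdp2 by 1.47 (adjusted p = 0.00706) and Lgr4, a second receptor of RANKL, by 1.28 (adjusted p = 0.0267). Spi1 and Irf8 differed there by 1.04 and 1.09 (adjusted p = 0.0518 and 0.0528 in edgeR). For a change in the effect of limb between the weeks edgeR called 0 of the 21.

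Of 16 genes of the resorption machinery, 0 were called between the limbs at either week, with medians of 0.03 and -0.08. From 4 to 12 weeks only Tcirg1, a subunit of the osteoclast proton pump, was called, higher in the DMM limb by 0.99 (SE 0.26, adjusted p = 0.0212 in edgeR), where 23.6% of all transcripts were called (13.6% higher). The carbonic anhydrase gene Car2, the chloride channel gene Clcn7 and the gelatinase gene Mmp9 were not called in any comparison. Mmp9 differed between limbs by -0.82 (SE 0.59) at 4 weeks and -0.37 (SE 0.25) at 12 weeks. The calcitonin receptor gene Calcr, a marker of mature osteoclasts, stood at 0.09 to 1.58 CPM, with log2 differences of -0.83 (SE 0.65) and -0.03 (SE 0.71).

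Of 20 ligands and stromal regulators of RANKL and OPG, 1 was called between the limbs at 12 weeks and 0 at 4 weeks. The called gene was Ptgs2, which encodes the prostaglandin synthase COX-2 and was the single transcript called at 12 weeks. It stood at 5.36 to 6.33 CPM in the 12-week control libraries and at 19.1 to 21.1 CPM in the DMM libraries, a log2 difference of 1.83 (SE 0.15, adjusted p = 0.0329 in edgeR). At 4 weeks it stood at 4.65 to 8.69 and 12.7 to 16.3 CPM (1.14, SE 0.26, adjusted p = 0.246 in edgeR). The cytokine gene Il11 was separated as widely, at 0.66 to 1.97 and 9.21 to 11.3 CPM at 12 weeks, with a log2 difference of 3.11 (SE 0.39) and an adjusted p of 0.0643 in edgeR. Csf1, the gene of M-CSF, differed by -0.30 (SE 0.23) and -0.01 (SE 0.15), and Il34, the other ligand of the M-CSF receptor, by 0.30 (SE 0.20) and -0.12 (SE 0.18). The vitamin D receptor gene Vdr differed by -0.42 (SE 0.35) and -0.61 (SE 0.22, edgeR adjusted p = 0.268). Pthlh, the gene of parathyroid hormone-related protein, stood at 4.29 to 9.97 CPM in control and 11.2 to 16.3 CPM in DMM libraries at 12 weeks, a log2 difference of 1.0 (SE 0.32, edgeR adjusted p = 0.250), and at 4 weeks the limbs overlapped (7.81 to 10.7 CPM in DMM libraries).

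From 4 to 12 weeks in the DMM limb, Il11 (1.96), Osm (1.24) and Tgfb1 (1.38) rose on the log2 scale, and Sema3a (-2.57), Ebf2 (-2.39) and Tnfsf10 (-1.33) fell. These are 3 of 20 in each direction, against 13.6% and 10.1% of all transcripts. Sema3a, a secreted inhibitor of osteoclast formation, stood at 27.7 to 52.6 CPM in the 4-week DMM libraries and at 3.82 to 7.70 CPM in the 12-week ones. Its control libraries stood at 7.65 to 19.7 CPM at 4 weeks, all below the DMM libraries. At 12 weeks they stood at 2.39 to 7.99 CPM, where the limbs overlapped. In the control limb 0 of these 20 genes were called between the weeks, against 5.69% of all transcripts.

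The genes most alike in pattern were sought by Pearson's r of log2 CPM over the 12 libraries, among 15577 genes. These values describe libraries that share groups, cell content and depth. Nearest to Tnfsf11 were Dio2 (0.94), Sh3pxd2a (0.92), Col5a1 (0.91), Ccdc186 (0.89) and Stk32c (0.87). Nearest to Tnfrsf11b were Serpina1e (0.96), Ecrg4 (0.95), Scin (0.95), Rab33b (0.94) and Cdo1 (0.94). Acp5 had Oscar (0.95) and Dcstamp (0.91), both members, among its 5 nearest, with Mt3 (0.94), Cd8a (0.94) and Slc9b2 (0.92). Ctsk had the collagenase gene Mmp13 (0.99) as its nearest, followed by Prkdc (0.94), Ifit1 (0.94), Myzap (0.93) and Ptprd (0.92). Between Tnfsf11 and Tnfrsf11b r was 0.29, and between Acp5 and Ctsk 0.70.

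DNA methylation at Tnfrsf11b was measured by reduced representation, which reads CpGs next to CCGG sites, so only a short stretch of the gene was covered. The oxBS libraries measure 5-methylcytosine (5mC) alone, as the percent of reads that keep a C. The gene has 5 exons on the minus strand, and 7 cytosines of intron 4 reached 10 reads in every oxBS library of each week, with 1 more in exon 1 at 12 weeks. The stretch of intron 4 is printed because 6 of these 7 cytosines lie in it, and the differences between the limbs lie in its middle. It is the plus strand of GRCm38.p6 (mm10), chr15:54252858-54253157, in RefSeq's annotation, with the CpGs that were tested in capitals.
Tnfrsf11b intron 4: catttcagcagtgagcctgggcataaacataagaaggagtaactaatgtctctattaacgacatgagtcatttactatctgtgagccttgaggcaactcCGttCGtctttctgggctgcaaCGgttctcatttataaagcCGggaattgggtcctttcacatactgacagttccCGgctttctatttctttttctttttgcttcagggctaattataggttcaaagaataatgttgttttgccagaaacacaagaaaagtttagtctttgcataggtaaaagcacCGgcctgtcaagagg

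The first 4 capital CpGs are read as cytosines of the minus strand at 54252958, 54252962, 54252980 and 54252999, next to the CCGG site at 54252997. They are covered by the same reads and are not independent of each other. The last 2 are a plus-strand cytosine at 54253032 and a minus-strand cytosine at 54253144, and the seventh tested cytosine, at 54252815, lies just before the printed stretch. All 7 are about 25 kb into the gene, from 25340 to 25669 bases after its start, and far from the promoter.

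At 12 weeks 5mC was lower in the DMM limb at the first 4 of these CpGs. The cytosine at 54252958 was methylated in 60.0%, 80.0% and 72.7% of reads in the control libraries (55, 15 and 22 reads). In the DMM libraries it was methylated in 22.7%, 48.1% and 30.0% (44, 27 and 50 reads). No DMM library reached the lowest control. The pooled reads gave 66.3% and 31.4%, a difference of -34.9 points (likelihood-ratio test on pooled reads, q = 0.000563). The neighbour at 54252962 was at 58.2%, 80.0% and 77.3% in control and 24.4%, 55.6% and 26.5% in DMM libraries, also without overlap. Its pooled difference was -34.1 points (q = 0.000845).

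At 54252980 the control libraries stood at 58.5%, 66.7% and 65% and the DMM libraries at 24.4%, 59.3% and 30.6%, with DMM replicate 2 inside the control range. Its pooled difference was -26.7 points (q = 0.0203). At 54252999 it was -23.1 points (q = 0.0697), with no overlap between the limbs. The remaining intron 4 cytosines differed by -13.6 (54253032), -8.10 (54253144) and -0.55 points (54252815), and none was called. DMM replicate 2 was the highest of the DMM libraries at 6 of the 7 intron 4 cytosines, and DMM replicates 1 and 3 carried most of the difference.

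Thus 3 of the 8 cytosines were called at 12 weeks (q under 0.05 and at least 25 points), all lower in the DMM limb, where 0.227% of all 1273156 cytosines tested were called. Most calls over all cytosines had this direction, with 2548 of the 2892 lower and 344 higher in the DMM limb. Pooling reads treats the libraries of a limb as 1 sample, so these q-values leave out the spread between libraries. With a correction for overdispersion between libraries 0 of 8 were called (smallest q 0.907), as were 0 of all 1273156 cytosines. Non-overlap with lower DMM libraries was seen at 3 of 8, against 5.57% of all cytosines, and with higher ones at 0 of 8, against 2.54%. Leaving out 1 library left 1 to 4 of them called, with 1 when DMM replicate 1 was left out. Without control replicate 1, control replicate 3 or DMM replicate 3 there were 2. The 5 CpGs from 54252958 to 54253032 met the study's definition of a region, with a mean difference of -26.5 points.

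At 4 weeks 0 of 7 cytosines were called, where 0.000554% of 1445146 were called. The largest difference was -11.2 points, at 54252999, and the smallest q was 0.600. The limbs overlapped at all 7, where 3.74% of all cytosines were lower and 2.39% higher in all 3 DMM libraries. At 54252958 the control libraries stood at 73.7%, 38.0% and 30.3% and the DMM libraries at 40.3%, 50% and 28%. Control replicate 1 stood apart from the other 5 libraries at each of the 4 minus-strand CpGs around the CCGG site, at 73.7% to 81.1%.

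**Figure D4:**
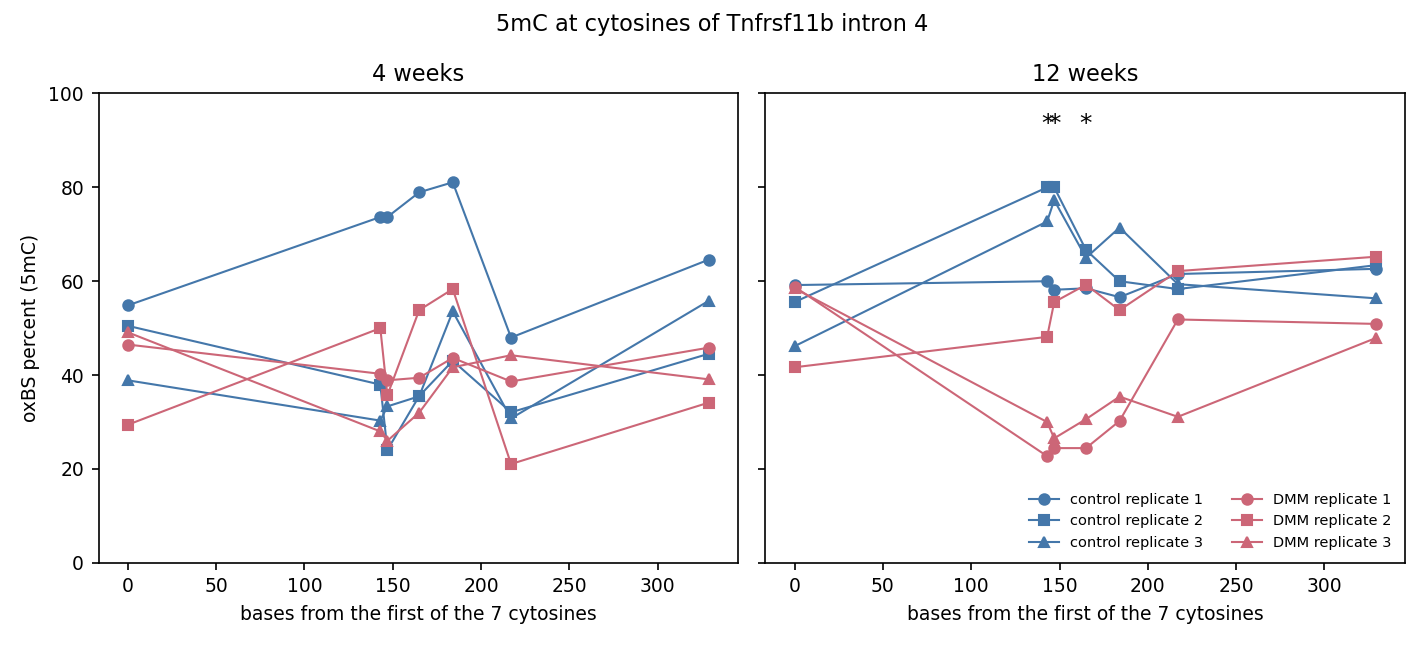
Percent of reads with 5mC at each tested cytosine of Tnfrsf11b intron 4, by bases from the first of the 7, in the oxBS libraries of each limb at 4 and 12 weeks. Lines join the cytosines of 1 library, and asterisks mark the 3 cytosines called at 12 weeks. At 12 weeks the control lines run above the DMM lines at 3 of the 4 neighbouring minus-strand CpGs, and at 4 weeks control replicate 1 stands above all others there.

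Averaged over the 8 cytosines, 5mC at 12 weeks was 52.1%, 58.0% and 56.0% in the control libraries and 32.9%, 49.1% and 33.2% in the DMM libraries. The means of 55.4 ± 3.01% and 38.4 ± 9.27% (SD, n = 3) differed by -17.0 points, with a two-sided exact permutation p of 0.1, the smallest possible. At 4 weeks the 7 cytosines averaged 67.8%, 38.2% and 39.7% in control and 41.9%, 40.4% and 37.2% in DMM libraries. The difference was -8.80 points (exact permutation p = 0.7), and without control replicate 1 it was 0.81 points. Over the 7 cytosines shared by both weeks, the difference was -19.98 points at 12 weeks, which differed from that at 4 weeks by -11.2 points (exact permutation p = 0.405 over 400 arrangements). The control mean rather than the DMM mean was the further apart across the weeks, by 14.7 points (exact permutation p = 0.4) against 3.50 points (exact permutation p = 0.9). At the exon 1 cytosine, 36 bases into the transcript, 5mC was 0% in 4 libraries and 7.14% and 5.56% in DMM replicates 2 and 3, from 10 to 18 reads each. The mRNA of Tnfrsf11b, from other mice, was not called at 12 weeks, as given above.

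The BS libraries read 5mC and 5-hydroxymethylcytosine (5hmC) together, and they did not show the separation of the limbs. At 12 weeks 7 cytosines were covered in both assays, with the exon 1 cytosine in place of that at 54253032 in intron 4. The exon 1 cytosine stood at 0% to 4.55% in BS, which lowers the mean levels. Over these 7, BS gave 48.1%, 54.5% and 51.2% in control and 40.9%, 62.4% and 49.5% in DMM libraries. The means of 51.2 ± 3.20% and 50.9 ± 10.8% differed by -0.31 points (exact permutation p = 1). Over the same cytosines oxBS differed by -17.8 points (exact permutation p = 0.1). BS minus oxBS, the usual estimate of 5hmC, was therefore -2.68, -3.50 and -4.41 points in the control pools and 10.7, 15.1 and 16.0 points in the DMM pools. The difference of 17.4 points had an exact permutation p of 0.1, the smallest possible. It contains the oxBS values and is not a second observation of them. The deposited BS data of DMM replicate 1 at 12 weeks carry another replicate's number in their name and were assigned by sample. The match of the assays for that pool is therefore uncertain.

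BS minus oxBS was higher in all 3 DMM pools at 4 of the 7 cytosines, which was the case at 3.4% of all cytosines. The 4 are the neighbours at 54252958 to 54252999, which share reads. Of the 42 values, 16 were below 0, which no 5hmC level can be, and they ran from -27.3 to 37.4 points. At 4 weeks the pools stood at -9.70, 6.30 and 8.24 points in control and 10.98, 10.4 and 10.5 points in DMM. That difference was 9.03 points (exact permutation p = 0.1, the smallest possible), and BS alone differed by 0.23 points (exact permutation p = 1). At 4 weeks 0 of the 7 cytosines were without overlap, against 3.66% of all, and 13 of the 42 values were below 0. Over all cytosines covered in both assays, the mean of BS minus oxBS was 1.43 to 2.86 points in the 12 pools. At 12 weeks this mean was also higher in the DMM limb without overlap. It was 1.54, 1.63 and 1.43 points in the control pools and 2.35, 1.77 and 2.02 points in the DMM pools. At 4 weeks the limbs overlapped, at 1.63 to 2.63 points in control and 2.34 to 2.86 points in DMM pools.

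**Figure D5:**
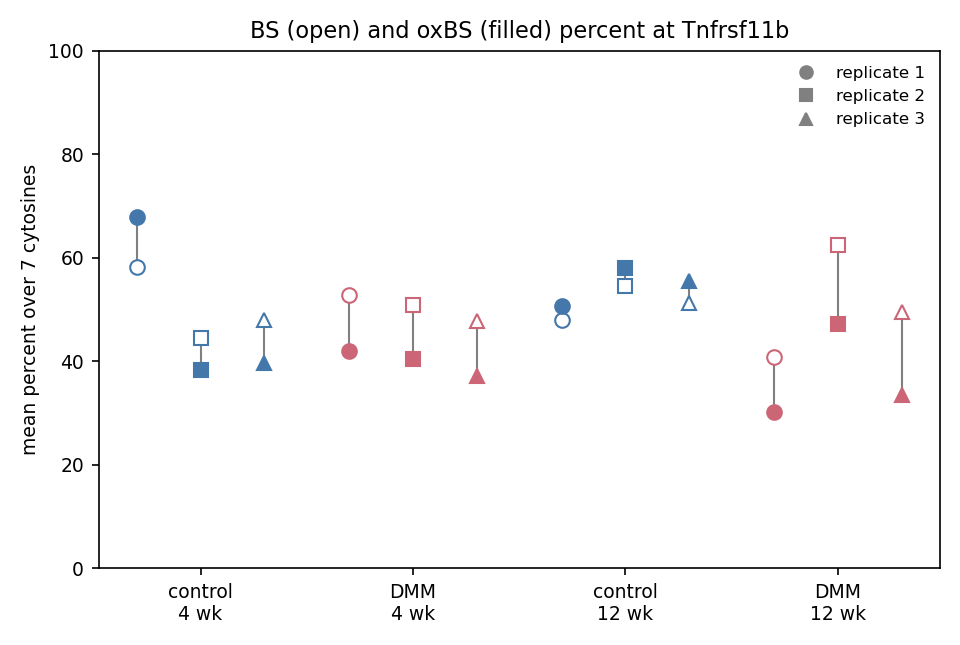
Mean percent of reads with C over the 7 Tnfrsf11b cytosines covered in both assays, for BS (open symbols, 5mC and 5hmC) and oxBS (filled symbols, 5mC alone), by limb and week. Each grey line joins the 2 assays of 1 DNA pool as assigned by sample, which is uncertain for DMM replicate 1 at 12 weeks. At 12 weeks oxBS is below BS in all 3 DMM pools and slightly above it in all 3 control pools.

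The other members were covered in different places. Around the start of Tnfsf11, within 1 kb, 38 cytosines at 4 weeks and 25 at 12 weeks averaged 0.686% to 1.17% and 0.228% to 0.842% over the libraries. The control libraries stood at 0.977% to 1.17% and the DMM libraries at 0.686% to 0.818% at 4 weeks, and at 0.706% to 0.842% and 0.228% to 0.562% at 12 weeks, differences of under 1 point that were given no test. The rest of Tnfsf11 was highly methylated, at 76.4% to 82.2% over 22 cytosines at 4 weeks and 81.4% to 83.9% over 18 at 12 weeks. Tnfrsf11a was almost unmethylated at its start, at 0.555% to 1.48% over 49 cytosines, and at 42.7% to 48.4% in its body. At 12 weeks the body of Tnfrsf11a stood at 47.2% to 48.4% in control and 45.7% to 46.9% in DMM libraries, given no test. At 4 weeks the limbs overlapped there. RefSeq's promoter windows, 250 bases before to 50 after the start, were at hand for 5 of the 9 members. That of Tnfrsf11a held 43 CpGs, counted as the letters CG, a number reached by 2.61% of 32851 promoters. Its 22 covered cytosines averaged 0.172% to 1.27% in the 12 libraries.

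The body of Acp5 averaged 41.1% to 42.9% over 41 cytosines at 4 weeks and 34.7% to 38.7% over 47 at 12 weeks, different sets that do not compare the weeks. The body of Ctsk averaged 70.8% to 79.5% and 74.1% to 83.1% over 9 cytosines at each week, with the limbs overlapping at both weeks. The CpG-richest of 3 Acp5 start windows, with 17 CpGs, averaged 5.33% to 9.40% over 13 covered cytosines. Few cytosines covered the fusion genes and Oscar. At 12 weeks the 2 in Dcstamp averaged 74.3% to 78.9% in control and 58.7% to 68.0% in DMM libraries. Those 2 in Ocstamp averaged 52.1% to 57.3% and 49.1% to 50.7%, and the 6 in Oscar 56.2% to 57.7% and 47.4% to 55.2%. These means over few cytosines were given no test. For them, and for the means of Tnfsf11 and Tnfrsf11a given above, the share of other genes with such a separation was not computed. Of all single cytosines at 12 weeks, a different measure, 5.57% were lower and 2.54% higher in all 3 DMM libraries. At 4 weeks the libraries of both limbs ran from 62.4% to 70.5% in Dcstamp and 37.6% to 56.2% in Ocstamp, with overlap in each. In Oscar they ran from 62.4% to 66.5%, also with overlap, over 16 cytosines, so its 2 weeks rest on different sets.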

How the data were processed

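Per the labels and the study's methods, RNA reads were trimmed, aligned with STAR to mm10 and counted with featureCounts against RefSeq, and the authors deposited raw counts per transcript. The labels name a poly(A) TruSeq kit and the methods a low-input SMART-Seq kit, so the RNA kit is uncertain, and strand was taken as unknown. For DNA, MspI fragments were treated with and without oxidation, sequenced and called with Bismark, and the deposited values are the percent of C and T reads at each cytosine with at least 10 reads. The median coverage per oxBS library was 22 to 102 reads over 1463987 to 2186301 cytosines.

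The members and gene lists were chosen with earlier results of these data known. Limbs were compared within each week, and weeks within each limb, with edgeR 4.0.16 (TMM, quasi-likelihood, filterByExpr) in R 4.3.3 over all transcripts, and p-values were adjusted by Benjamini-Hochberg over all of them. CPM used TMM-scaled library totals. RANKL to OPG ratios used a pseudocount of 0.5. For 5mC, a cytosine needed 10 reads in all 6 oxBS libraries of a week, and pooled methylated and unmethylated reads were compared by a likelihood-ratio test with q under 0.05 and at least 25 percentage points. A region was a chain of 3 or more CpGs no more than 100 bp apart, differing by 20 points on average and holding 1 CpG past 25 points at q under 0.01. Library means were compared by two-sided exact permutation tests (20 regroupings of 3 against 3), and SciPy 1.17.1 gave the p-values of the likelihood-ratio tests. By rule, all 9 members are named, of the lists every gene called and a fixed set of ligands, receptors and effectors, and the 5 genes most alike to each of Tnfsf11, Tnfrsf11b, Acp5 and Ctsk, and the called cytosines; Il11 at 12 weeks, Spi1 and Irf8 in the control limb and the other cytosines were singled out after their values were seen. Scripts were tested on simulated data. Alternatives were DESeq2 1.42.0, size factors, filters, transcript choice, coverage minimums, overdispersion, a replicate block and leaving out each library. No column of another series was found. The labels do not tell whether control and DMM pools of the same replicate number come from the same mice, and they were treated as unpaired.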

Additional observations from a re-analysis of the deposited data

How the results depend on the processing

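Of 541 alternative values for 39 results, 491 kept their direction and their side of the threshold, or stayed within the spread used for values without a test. For the ratio, the mean 5mC and the 5hmC results the exact permutation p cannot fall below 0.1. Those values could change only in sign, so their count is no measure of stability against the threshold. No member was called between limbs at either week, or for the change between weeks, under any alternative run. The count of members called between weeks in the DMM limb was 0 and became 1 with DESeq2, with no filter on low counts, with the 6 libraries of the limb alone and with the replicate block, and 0 to 2 when a library was left out. Leaving out 1 library turned the sign of small differences between limbs. At 4 weeks these ranged from -0.46 to 0.14 (Tnfrsf11a), -0.035 to 1.02 (Dcstamp), -0.42 to 0.74 (Ocstamp), -0.52 to 0.66 (Oscar), -0.32 to 0.73 (Acp5) and -0.021 to 0.93 (Atp6v0d2). At 12 weeks they ranged from -0.67 to 0.19 (Tnfrsf11a), -0.34 to 0.022 (Dcstamp), -0.074 to 0.33 (Ocstamp), -0.19 to 0.39 (Oscar), -0.23 to 0.14 (Acp5) and -0.061 to 0.26 (Ctsk). The 12-week ratio difference ranged from -0.28 to 0.38 and the 4-week mean 5mC difference from -14.0 to 0.81 points. The Tnfrsf11b cytosines called at 12 weeks were 0 with at least 20 reads, where 1 cytosine was left to test, 0 with the overdispersion correction, and 1 to 4 when a library was left out. The causes were not tested.

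Same-numbered RNA libraries did not deviate together in every pair (correlations from -0.55 to 0.36), nor did the oxBS libraries (-0.06 to 0.26). Such correlations over 3 pools a limb cannot tell whether same-numbered pools come from the same mice, so pairing stays unknown. The replicate block gave log2 differences of 0.18 (Ocstamp), 0.10 (Oscar) and 0.21 (Acp5) at 4 weeks and -0.0095 (Acp5) at 12 weeks, and changed no other direction between limbs. Counts over all transcripts moved between settings. At 4 weeks 16 were called, against 751 by DESeq2 and 354 with the block, and at 12 weeks 1, against 868 and 734. These counts are at most 4.26% of the transcripts tested. Among so few members a call would be rare at such shares, so their unchanged count between limbs cannot show stability. Over all cytosines 8 were called at 4 weeks and 3039 without control replicate 2. The 5mC values rest on as few as 10 reads for a cytosine in 1 library and on 3 pools a limb.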
